A study of Mus musculus with 6 samples.

Results

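The oocyte-specific homeobox (*Obox*) and oogenesin (*Oog*) families were followed across the non-polysomal (NP) and polysomal (P) fractions of mouse oocytes. The members were the rows of the FPKM table (fragments per kilobase of exon, scaled to the mapped reads of each library) named *Obox1*, *Obox2*, *Obox3*, *Obox5*, *Obox6*, *Oog1*, *Oog2*, *Oog3* and *Oog4*, which are 9 of 25899 genes in the table, 5 of them *Obox* and 4 *Oog*. They were chosen by name and not by a filter on their values, although earlier results of these data were known. The libraries were 3 NP and 3 P libraries (replicates 1 to 3 of each), made from lysates of 200 denuded oocytes of aged females (AF). Fractions of each lysate were pooled into both groups, but that equal replicate numbers mark 1 lysate is nowhere stated in the sources used here. The labels give CD1 mice of 58 weeks, primed with pregnant mare serum gonadotropin, whereas the study's text calls the mice ICR and gives another age. All groups shared the same treatment: fully grown oocytes were cultured for 180 min without IBMX until after nuclear envelope breakdown, then kept for 10 min in cycloheximide, an inhibitor that freezes ribosomes in place, and lysates were run through sucrose gradients whose 10 fractions were pooled into NP and P. Libraries of young females were not analysed here, so every comparison is between fractions within aged females. No source used here says how many animals gave the oocytes of a sample.

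mRNAs that carry several ribosomes travel deep into a sucrose gradient, and free mRNAs and mRNAs on single ribosomes stay near its top. The fully grown oocyte does not transcribe, so its proteins are made from mRNAs stored during growth, and many stored mRNAs are called into or out of polysomes as meiosis resumes. *Obox* genes encode homeodomain proteins, transcription factors that bind DNA through a helix-turn-helix fold. Some of these genes are stored as mRNA in the oocyte and are known as maternal factors for the first transcription of the mouse embryo. *Oog* genes encode leucine-rich repeat proteins of the Prame family and are transcribed in female germ cells and growing oocytes. Both families arose by repeated duplication, and many of their members lie in clusters of related genes and pseudogenes.

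Facts of the whole table that touch the members are these. The depth of a library, read off from the spacing of its low FPKM values, was between 1235000 and 18084000 reads in the NP libraries and between 164000 and 1547000 reads in the P libraries, a 110-fold span. Whether a step is a read or a read pair is not settled by the files. FPKM summed over all genes were between 597261 and 633110 in NP and between 246182 and 393876 in P. Across the 10578 genes tested, the P over NP ratio had a median of -1.03 on the log2 scale, and 19.9% of genes were above 0. All 12 oocyte markers were above 0 in every library. Of 12 granulosa and cumulus markers, 7 were listed at 0 in every library, among them *Fshr*, *Foxl2* and *Amh*, and the summed level of the list was between 7.85 and 104 FPKM in NP and between 0.152 and 16.5 FPKM in P. Most of the highest of these sums was *Cyp19a1* in NP replicate 3, and its part in the results was not tested. All 5 blood markers in the table were at 0.

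The 5 *Obox* rows lay within 486 kb of chromosome 7, where GENCODE M21 also places 46 *Obox* pseudogenes. The 5 genes share a homeobox, the stretch of 180 bases that encodes the DNA-binding homeodomain. How far whole transcripts are shared is given further below. These stretches, only a part of each transcript, are shown to compare the members at the homeobox. They are given 5′ to 3′ on the coding strand, from GENCODE M21 transcripts on GRCm38, with every base that differs from *Obox1* in capitals.
Obox1: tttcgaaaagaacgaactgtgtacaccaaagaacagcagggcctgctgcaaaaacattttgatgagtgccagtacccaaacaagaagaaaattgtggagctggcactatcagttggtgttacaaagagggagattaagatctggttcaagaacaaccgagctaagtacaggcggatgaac
Obox2: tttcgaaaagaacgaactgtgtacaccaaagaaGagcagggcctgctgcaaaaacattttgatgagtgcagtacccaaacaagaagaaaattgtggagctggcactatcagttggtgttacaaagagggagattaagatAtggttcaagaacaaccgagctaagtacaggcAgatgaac
Obox3: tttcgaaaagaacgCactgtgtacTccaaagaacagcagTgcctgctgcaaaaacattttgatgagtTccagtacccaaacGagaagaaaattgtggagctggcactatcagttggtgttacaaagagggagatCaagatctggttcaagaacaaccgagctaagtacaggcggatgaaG
Obox5: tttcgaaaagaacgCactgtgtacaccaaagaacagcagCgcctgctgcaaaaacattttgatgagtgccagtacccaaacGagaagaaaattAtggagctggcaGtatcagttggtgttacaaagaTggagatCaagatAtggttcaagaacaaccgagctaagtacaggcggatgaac
Obox6: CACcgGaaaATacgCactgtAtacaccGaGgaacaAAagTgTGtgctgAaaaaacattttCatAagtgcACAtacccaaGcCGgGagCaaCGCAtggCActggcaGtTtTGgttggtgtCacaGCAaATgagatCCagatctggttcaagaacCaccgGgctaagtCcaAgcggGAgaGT
In *Obox1*, the stretch comprised codons 94 to 153 of 204 and lay in 2 exons between chr7:15555567-15556192. *Obox2* (chr7:15397250-15397875) differed from it at 3 bases and lacked 1 base, and its annotated reading frame of 151 codons had a stop inside the stretch. *Obox3* (chr7:15626284-15626933) differed at 7 bases and *Obox5* (chr7:15757941-15758580) at 8, in each case with 5 codons for another amino acid. *Obox6* (chr7:15833909-15834517) stood apart, with 52 differing bases and 27 codons for another amino acid. Over the aligned coding sequences, *Obox1* was 98.5% identical to *Obox2*, 95.4% to *Obox5*, 93.8% to *Obox3* and 77.9% to *Obox6*. The reference is of another strain than the CD1 mice, so a single base of these runs need not hold in the oocytes studied.

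*Oog2*, *Oog3* and *Oog4* lay within 760 kb of chromosome 4, in a stretch that holds 20 rows of the table, and *Oog1* lay on chromosome 12. The 4 coding sequences were between 74.6% and 81.5% identical to each other. *Oog1* had a much closer relative outside the members: GENCODE M21 names a gene *Gm2042* on the same chromosome whose coding sequence was identical at 1490 of 1491 bases. By its position this gene is the row CT954323.1 of the table (chr12:87954510-87960672), while the row spelled *Gm2042* (chr12:88175589-88181894) lies at the gene that RefSeq calls *Pramel51*. The only place at which the 2 coding sequences differ is shown with the differing base in capitals, from coding base 1267 to 1327.
Oog1: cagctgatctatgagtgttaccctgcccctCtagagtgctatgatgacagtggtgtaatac
Gm2042 of GENCODE M21: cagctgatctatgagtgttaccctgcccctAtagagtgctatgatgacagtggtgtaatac
These runs lay at chr12:87608350-87608410 and chr12:87960181-87960241, both on the plus strand. A read from the coding sequence tells the 2 genes apart only if it covers that base.

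The share of transcript sequence that a member has in common with other genes was measured as the share of its exonic windows of 75 bases that occur unchanged in a transcript of another gene. *Oog1* shared 82.8% of its windows, of which the windows in common with CT954323.1 made up 81.3% of the gene and those in common with the row *Gm2042* 41.9%. *Obox2* shared 52.6% and *Obox1* 47.2%, in both cases 853 windows that the 2 genes have in common. *Oog2* shared 22.5%, nearly all of it with *Gm13084*, another Prame family gene whose coding sequence was 98.5% identical. *Oog3* shared 13.6%, with the pseudogene *Gm4350*, and *Obox3* shared 12.3%, with *Obox3* pseudogenes. *Obox5* shared 6.04%, *Obox6* 1.34%, and no window of *Oog4* occurred elsewhere. How reads that fit several genes were counted is not given in the sources used here, so the FPKM of *Oog1*, *Obox1*, *Obox2* and, in part, *Oog2* are uncertain as values of single genes. In GENCODE M21, exons of *Obox1* and *Obox2* overlapped by 59 bases, and no other members had exons that overlapped each other. Overlap with exons of genes that are no members is not given here.

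**Figure D1:**
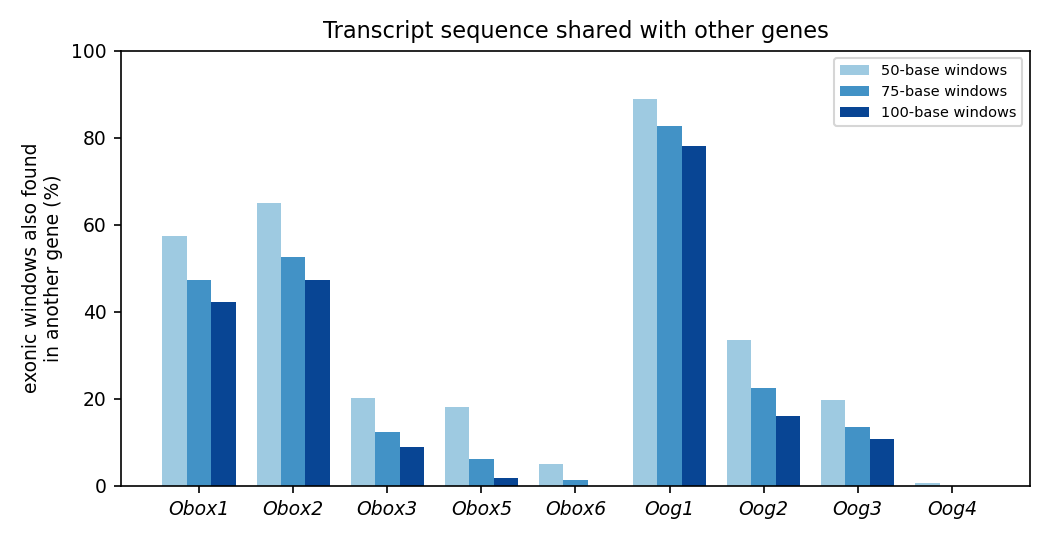
Percent of exonic windows of each member that occur unchanged in a transcript of another gene, for windows of 50, 75 and 100 bases (bars, GENCODE M21 transcripts). At 75 bases *Oog1* reaches 82.8%, *Obox1* and *Obox2* about the middle of the axis, and *Oog4* is at 0.

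*Oog3* was the most abundant of the 9 members in every library, and *Obox6* was not detected in any. In NP the means fell in the order *Oog3*, *Oog4*, *Obox2*, *Obox1*, *Obox5*, *Oog2*, *Oog1*, *Obox3*, *Obox6*, and in P in the order *Oog3*, *Obox2*, *Obox5*, *Obox1*, *Oog2*, *Oog4*, *Oog1*, *Obox3*, *Obox6*. FPKM are per length, so levels can be set side by side between genes of 1 library. They are relative to all reads of that library, so less of an mRNA and more of all others cannot be told apart. In NP the range of *Oog3* lay above that of every other member. In P it overlapped that of *Obox5*, which was at 335 FPKM in P replicate 1 against 337 FPKM of *Oog3*. From the second to the seventh place the ranges of neighbours overlapped in both fractions, although *Oog2* exceeded *Oog1* in 3 of 3 NP libraries. *Oog1* was sixth or seventh in every library, and in NP its range lay wholly below those of *Oog4*, *Obox2*, *Obox1* and *Obox5*. The step from *Oog1* down to *Obox3* was beyond the ranges in both fractions. Each of the 7 members from *Oog3* to *Oog1* stood at or above the 89.3th percentile of all genes in each library.

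**Figure D2:**
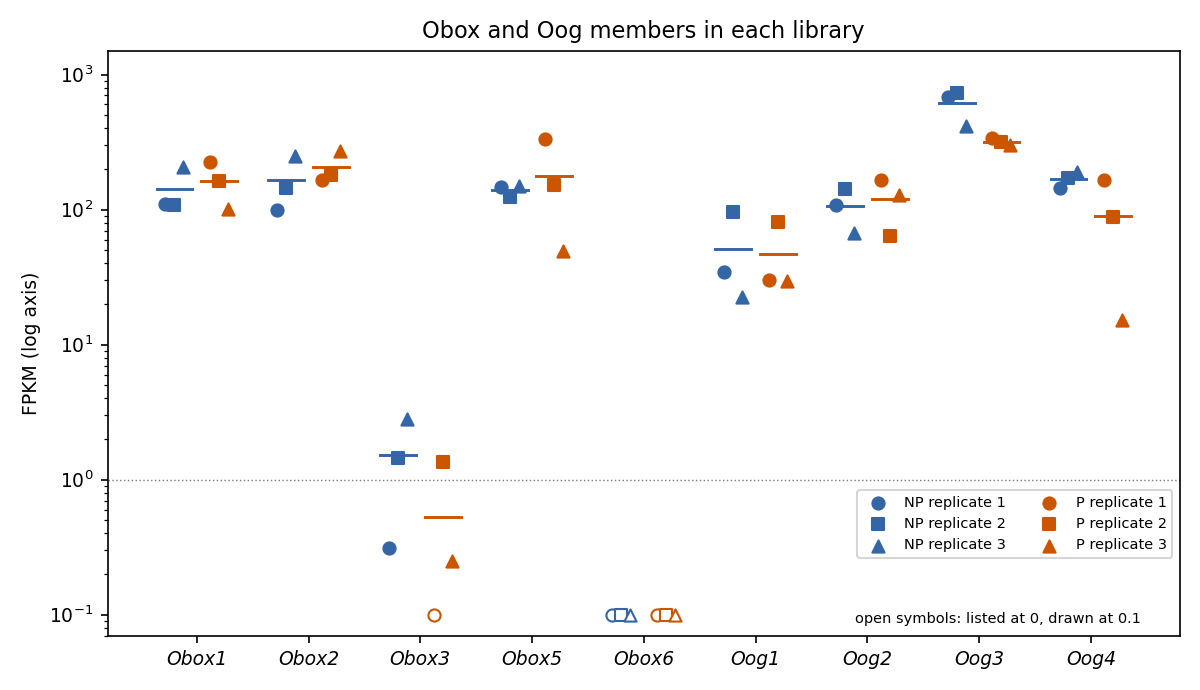
FPKM of each member in each library on a log axis, NP in blue and P in orange, with 1 symbol shape per replicate and horizontal bars at the group means (n = 3 each). *Oog3* is highest throughout, between 302.5 and 731.8 FPKM, *Obox3* lies around 1 FPKM, and *Obox6* is listed at 0 in all 6 libraries (open symbols, drawn at 0.1).

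*Obox1* (chr7:15512340-15556866, plus strand) and *Obox2* (chr7:15354037-15398545, plus strand) are the pair that share most sequence within the *Obox* family. *Obox1* was at 109.9, 108.0 and 207 FPKM in NP replicates 1, 2 and 3 and at 225, 163 and 101.5 FPKM in P replicates 1, 2 and 3. The highest and the lowest of these 6 values are both P libraries, so the groups overlapped. The means were 141.7 ± 56.6 in NP and 163.1 ± 61.6 FPKM in P (SD, n = 3 each). The log2 ratio of P over NP was 0.20 (95% interval -1.36 to 1.76, limma adjusted p = 0.907), and it was -0.07 without P replicate 1.

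*Obox2* was at 99.5, 144.9 and 250.1 FPKM in NP and at 166.7, 181.3 and 269.8 FPKM in P. Each P library exceeded the NP library with the same number, yet the ranges overlapped. The log2 ratio was 0.39 (95% interval -1.12 to 1.89, limma adjusted p = 0.791). The FPKM of both genes together were 209.5, 252.9 and 457 FPKM in NP and 391, 344 and 371 FPKM in P. The ratio of *Obox2* to *Obox1* was between 0.742 and 1.34 in 5 libraries and 2.66 in P replicate 3.

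*Obox5* (chr7:15750134-15759800, plus strand), whose windows are mostly its own, was at 146.6, 123.3 and 149.6 FPKM in NP and at 335, 151.1 and 49.3 FPKM in P. The NP values lay close together, and the P values spread 6.79-fold, from above to below all NP values. The recovered reads behind the P values were 117, 368 and 163, whose exact Poisson 95% intervals, which cover counting error only, reach from 277 to 401, from 136 to 167 and from 42.0 to 57.5 FPKM. The log2 ratio was -0.04 (95% interval -1.71 to 1.64, limma adjusted p = 0.985), with a sign that turned under other scalings.

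*Obox3* (chr7:15479825-15639902, minus strand) was near the limit of detection. It was at 0.311, 1.45 and 2.80 FPKM in NP, at 1.35 and 0.249 FPKM in P replicates 2 and 3, and listed at 0 in P replicate 1. At an exon length of 2598 bases, where the values of NP replicate 1 and P replicates 2 and 3 come closest to whole reads, it had 1, 68 and 88 reads in NP and 0, 4 and 1 reads in P. At that length 3 reads would be worth 7.05 FPKM in P replicate 1, above every value of *Obox3* in the other libraries. *Obox3* passed the filter of a mean above 1 FPKM through NP alone (1.52 against 0.533 FPKM in P), so its lower value in P is not a finding. Its log2 ratio was -0.69 (95% interval -2.50 to 1.13, limma adjusted p = 0.678).

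*Obox6* (chr7:15833246-15839678, minus strand) was listed at 0 in all 6 libraries and was not tested. In the deepest library, NP replicate 2, 3 reads of *Obox6* would be worth 0.123 FPKM, and in the shallowest, P replicate 1, 13.6 FPKM. A level near that of *Obox5* would thus have been seen in every library. In P replicates 2 and 3, 3 reads would be worth 1.96 and 1.44 FPKM, above the values of *Obox3* there. *Obox7*, a further family member that RefSeq also lists as *Gm4745*, had a row under that older symbol. It was at 1.28, 16.4 and 2.15 FPKM in NP and at 29.0, 18.0 and 12.8 FPKM in P. Its value in each P library exceeded that in the NP library with the same number, although NP replicate 2 lay above P replicate 3. Its log2 ratio was 1.99 (95% interval -0.50 to 4.49, limma adjusted p = 0.411), and it shares sequence with *Obox5* in 4.68% of the windows of that gene.

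The shares of the members in the *Obox* sum add up to the whole, so that 1 share can rise only as others fall. *Obox1* made up between 24.1% and 33.97% of the sum in the 6 libraries, *Obox2* between 22.9% and 64.1%, and *Obox5* between 11.7% and 46.1%. The *Obox* sum was 356.3, 377.7 and 609.5 FPKM in NP and 726.2, 496.9 and 420.9 FPKM in P.

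*Oog3* (chr4:144157557-144162663, minus strand) was at 687.5, 732 and 418 FPKM in NP and at 337, 318.0 and 302.5 FPKM in P. It was the only one of the 8 members tested whose fractions did not overlap, with every P library below every NP library. Over all genes tested, P lay entirely below NP in 23.2% and entirely above in 0.633%. The means were 612 ± 170.1 and 319 ± 17.4 FPKM (SD, n = 3 each), a log2 ratio of -0.90 (95% interval -2.14 to 0.34, limma adjusted p = 0.45, exact permutation p = 0.1, the smallest that 3 against 3 can give). This ratio lay 0.13 above the median of all genes, and it was 0.04 when the libraries were rescaled to a common FPKM sum. Under the alternatives given below, its distance from the median of the same fit ranged from -0.37 to 0.83.

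*Oog4* (chr4:143437164-143450324, minus strand), the member with no shared window of 75 bases, was at 143.6, 170.0 and 189.2 FPKM in NP and at 166.4, 88.4 and 15.3 FPKM in P. P replicate 1 lay within the NP range and P replicate 3 below every other library. At 47 recovered reads, the value of P replicate 3 has an exact Poisson 95% interval of 11.2 to 20.4 FPKM. The log2 ratio was -1.42 (95% interval -3.26 to 0.42, limma adjusted p = 0.424), 0.39 below the median of all genes, and it was -0.45 without P replicate 3. Under the alternatives given below, its distance from the median of the same fit ranged from -1.10 to 0.48. The highest was that without P replicate 3, so its side of the median turned. *Oog4* was the lowest of the members tested by this ratio, but not without P replicate 3, where *Oog3* was at -0.86 and *Obox3* at -0.59.

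*Oog2* (chr4:144190719-144196934, plus strand) was at 107.8, 141.7 and 67.6 FPKM in NP and at 164.8, 64.3 and 128.0 FPKM in P. The fractions overlapped, and the log2 ratio was 0.13 (95% interval -1.53 to 1.79, limma adjusted p = 0.942). Its near copy *Gm13084* was at 244, 460.2 and 194 FPKM in NP and at 537, 253 and 632 FPKM in P. The copy exceeded *Oog2* in every library, between 2.27-fold and 4.94-fold.

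*Oog1* (chr12:87602688-87608845, plus strand) was at 34.3, 95.8 and 22.4 FPKM in NP and at 30.3, 80.2 and 29.6 FPKM in P. Replicate 2 was the highest in both fractions, and the fractions overlapped almost fully (log2 ratio -0.01, 95% interval -2.01 to 1.98, limma adjusted p = 0.995). The row CT954323.1 was at 73.6, 175 and 56.9 FPKM in NP and at 74.6, 100.2 and 50.9 FPKM in P. The row *Gm2042* was at 180, 349 and 140 FPKM in NP and at 190, 221 and 102 FPKM in P. All 3 rows thus had replicate 2 as their highest library in both fractions, and *Oog1* made up between 10.2% and 19.98% of their sum. The part that shared reads have in this likeness was not tested.

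**Figure D3:**
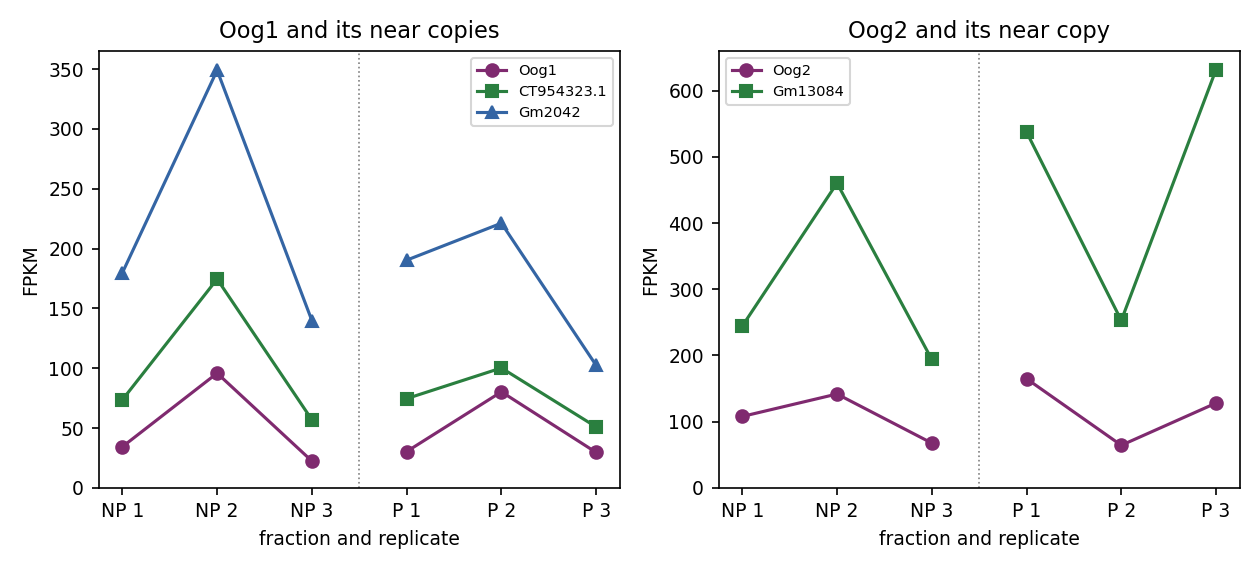
FPKM per library of *Oog1* with the rows CT954323.1 and *Gm2042* (left) and of *Oog2* with *Gm13084* (right), NP replicates 1 to 3 and P replicates 1 to 3; lines join libraries of 1 fraction only as a guide. The 3 rows on the left peak in replicate 2 of each fraction, and *Gm13084* lies above *Oog2* in every library.

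Within the *Oog* sum, *Oog3* made up between 48.3% and 70.6% in the 6 libraries. *Oog1* made up between 3.21% and 14.6%, *Oog2* between 9.70% and 26.9%, and *Oog4* between 3.22% and 27.2%. The *Oog* sum was 973.1, 1139 and 696.8 FPKM in NP and 698.7, 551.0 and 475.4 FPKM in P. The sum of the *Obox* members was 0.366, 0.331 and 0.875 times that of the *Oog* members in NP and 1.04, 0.902 and 0.886 times in P. NP replicate 3 was level with P replicates 2 and 3 by this ratio, and NP replicates 1 and 2 lay lower.

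**Figure D4:**
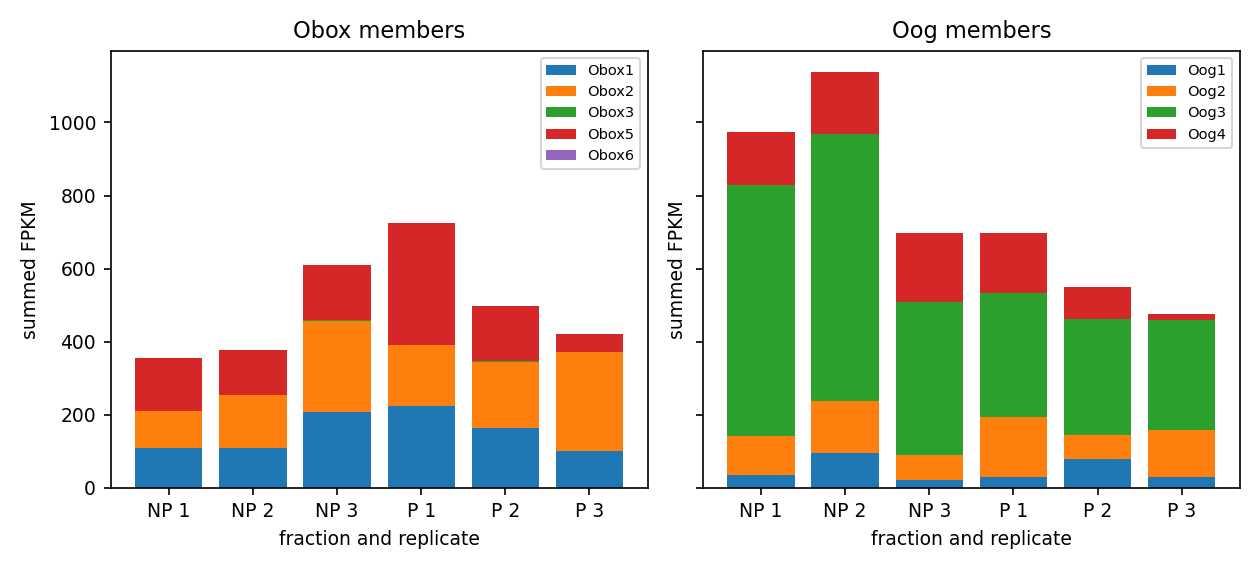
FPKM of the *Obox* members (left) and *Oog* members (right) stacked for each library. *Oog3* forms the largest block of each *Oog* bar (48.3% to 70.6%), and *Obox3* and *Obox6* are too low to be seen in the *Obox* bars.

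P and NP were then compared across the table, to ask which mRNAs were more or less abundant on polysomes than off them. Of the 9 members, 8 had a mean above 1 FPKM in a fraction and were tested, and 0 of 8 passed the threshold of limma with Benjamini-Hochberg adjustment (adjusted p under 0.1), against 1.82% of all genes tested (192 genes, of which 2 or 0.0189% were higher and 190 or 1.8% lower in P). Without NP replicates 1, 2 and 3 in turn the count of genes called was 4, 12 and 1, and without P replicate 3 it was 331, with 0 members among them each time. At an unadjusted p under 0.05 the count of members was also 0, against 1669 genes or 15.8% of all genes tested, and the smallest adjusted p was 0.424, that of *Oog4*. The intervals above are wide: for *Obox1* they allow both a fall by 1.36 and a rise by 1.76 on the log2 scale. On simulated data with the residual SD of these libraries (1.22 on the log2 scale), 5 of 200 genes changed by 2 were called among 8511. The 1.22 is the median over all genes and not the SD of the members, whose standard errors were between 0.598 and 0.962.

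The members' place among all genes was as follows. Among the 7 members above 1 FPKM in both fractions, 3 had a log2 ratio above 0, and their median was -0.01. Over the 7446 genes that met the same condition the median was -0.95, with 20.8% above 0, and 6 of the 7 members lay above that median. The 12 oocyte markers also lay above it on balance, with a median of -0.33 and 5 of 12 above 0. The ratio exceeded the all-gene median by 1.42 for *Obox2*, 1.23 for *Obox1*, 1.16 for *Oog2*, 1.02 for *Oog1*, 0.997 for *Obox5* and 0.13 for *Oog3*. Each of the first 5 lay between the 79.4th and the 87.5th percentile of ratios. *Oog3* did not stay above the median of the same fit under every alternative. The 95% interval of each of the 8 ratios also held the all-gene median. When libraries were rescaled to a common FPKM sum, the all-gene median was -0.43, *Obox2* was at 163, 229 and 419 in NP and at 488, 736 and 685 in P (ppm of the summed FPKM), and *Oog2* was at 176, 224 and 113 in NP and at 483, 261 and 325 in P. On that scale both lay entirely higher in P, as did 3.05% of genes tested, and neither passed the limma threshold (adjusted p = 0.704 for *Obox2* and 0.743 for *Oog2*). Divided instead by the geometric mean of the 12 oocyte markers, the fractions overlapped for both. On that scale *Obox2* was at 0.162, 0.209 and 0.420 in NP and at 0.238, 0.654 and 0.412 in P, and *Oog2* at 0.175, 0.205 and 0.113 in NP and at 0.236, 0.232 and 0.196 in P.

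**Figure D5:**
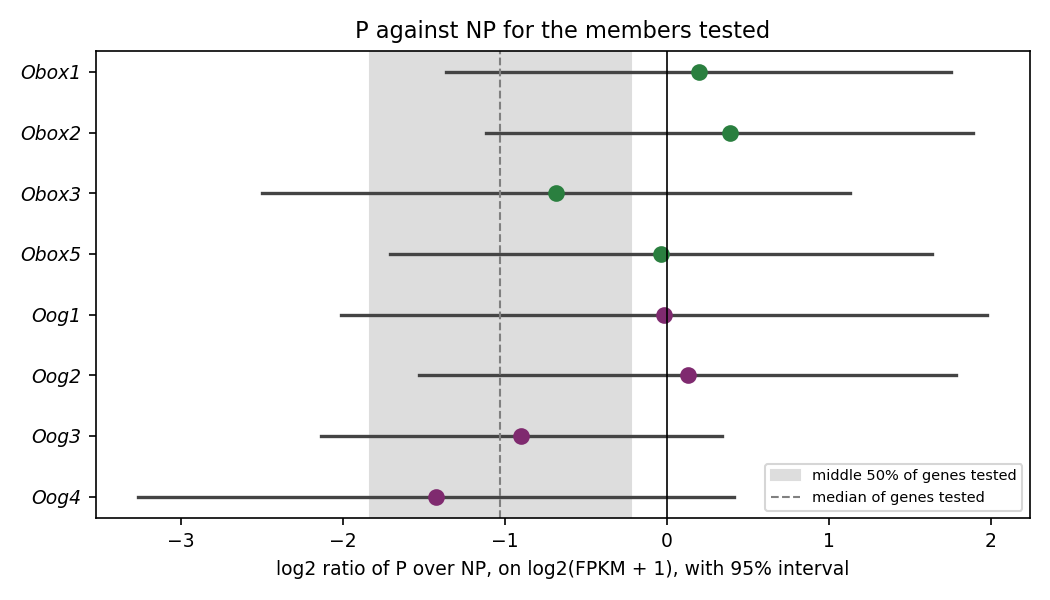
Log2 ratio of P over NP for the 8 members tested (points; *Obox* green, *Oog* purple) with 95% intervals from limma (n = 3 libraries per fraction). The dashed line is the median of all genes tested (-1.03) and the grey band holds the middle 50% of them; every interval reaches across 0.

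The 3′ ends were read for the elements by which stored mRNAs are handled in maturing oocytes. The cytoplasmic polyadenylation element (searched as TTTTAT and TTTTAAT on the transcript strand) recruits the factor CPEB1, and the polyadenylation signal (AATAAA or ATTAAA) marks where the tail is added. All 9 members had a polyadenylation signal in the last 100 bases of the transcript chosen, as did 78.2% of the tested genes with a complete coding sequence. A cytoplasmic polyadenylation element stood in the last 100 bases of *Obox1*, *Obox2*, *Oog1* and *Oog3*, which are 2 of 5 *Obox* and 2 of 4 *Oog* members, against 18.3% of the tested genes. The ratios of these 4 were 0.20, 0.39, -0.01 and -0.90, and those of *Obox3*, *Obox5*, *Oog2* and *Oog4*, which had none there, were -0.69, -0.04, 0.13 and -1.42. The 2 sets of ratios overlapped. Over the whole 3′ untranslated region (after the stop codon), *Obox5* had 4 such elements, *Obox3* 2, *Oog2* 1 and *Oog4* 0. In *Oog3* the counted element started 10 bases from the end, after the signal, which started 29 bases from it. The runs of 30 bases around the signal are shown for members with and without the element in the last 100 bases. Each complete signal is in capitals (in *Obox1* the 2 forms overlap).
Obox1: atatgttcATTAAATAAAaggagaaaatag
Obox5: ataaatctgataAATAAAtactgtgagcca
Oog1: tgttgactgcatacAATAAAtctgttgact
Oog3: ttgactgcatatAATAAAtgtgttaacttt
Oog4: ttaagtgcatacAATAAAtgtgttaacttt
The run of *Obox1* lies at chr7:15556826-15556855 on the plus strand and recurs unchanged in *Obox2*, that of *Obox5* at chr7:15759760-15759789 on the plus strand, that of *Oog1* at chr12:87608812-87608841 on the plus strand, that of *Oog3* at chr4:144157568-144157597 and that of *Oog4* at chr4:143437165-143437194, both on the minus strand.

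Promoters were available from RefSeq (GRCm38.p6, 250 bases before to 50 after the start) for 8 of 9 members. That of *Obox1* was 95.5% identical to that of *Obox5*, and *Oog1* and the gene *Gm2042* of GENCODE M21 were 99.7% identical. TAATTG, an element bound by the oocyte homeobox factor NOBOX, was found on either strand in 2 of 8 (*Oog3* and *Oog4*), against 8.15% of 27025 promoters. The similar run TAATTA was found in 0 of 8 against 5.31%. Binding of NOBOX was not tested. CANNTG, the E-box bound by bHLH factors such as FIGLA, was found in 7 of 8 against 72.1%, and TATAAA in 3 of 8 against 14.2%.

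Among 12 ovarian transcription factors that act in the oocyte programme, 11 were tested. *Nobox*, itself a homeobox gene, was the only one called, 1 lower and 0 higher in P, against 1.8% and 0.0189% of all genes tested. At an unadjusted p under 0.05 (limma) there were 2 of the 11, against 15.8% of all genes tested. *Nobox* was at 386.7, 567 and 406.0 FPKM in NP and at 32.1, 104.1 and 37.3 FPKM in P. It lay entirely lower in P, as did 23.2% of all genes tested. Its log2 ratio was -3.13 (95% interval -4.70 to -1.56, limma adjusted p = 0.0586). The ratio stayed negative under all 15 alternatives, between -3.65 and -2.003, but the call was lost under 8 of them, among them each other scaling (adjusted p = 0.617, 0.65 and 0.518) and the omission of NP replicate 1, 2 or 3 (adjusted p = 0.351, 0.353 and 0.165, limma). The other factors named by level, *Foxo3* and *Gtf2a1l*, had log2 ratios of 0.04 (adjusted p = 0.984) and -1.43 (adjusted p = 0.411, limma). Of the 11, 10 had means above 1 FPKM in both fractions, with a median ratio of -0.96, against -0.95 over the 7446 genes tested that did.

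Of 15 other Prame family genes in the table, 5 were at 0 in every library and 6 were tested, with 0 called higher and 0 lower and 0 at an unadjusted p under 0.05 (15.8% over all genes tested). All 6 had means above 1 FPKM in both fractions, with a median ratio of -0.28. This list does not hold the near copies *Gm13084* and *Gm13023*, the latter at means of 453 FPKM in NP and 462 FPKM in P. It does hold *C87977*, whose coding sequence was 96.1% identical to that of *Oog1*, against 96.4% for *Gm13023*. The 3 highest of the list were *C87977*, *Pramef12* and *C87499*, at means of 558, 467 and 446 FPKM over the 6 libraries. Their log2 ratios were 0.03, -1.10 and -0.35 (limma adjusted p = 0.983, 0.402 and 0.777). Of 22 genes in the table that were listed for the cleavage-stage embryo, 9 were tested, with 0 called and 2 at an unadjusted p under 0.05. Of these 9, 5 had means above 1 FPKM in both fractions, with a median ratio of -1.62, and the other 4 passed the filter through NP alone. The highest of them were *Whsc2*, *Tcstv1* and *Tcstv3*, at means of 53.9, 41.8 and 19.6 FPKM, so a place on this list does not exclude mRNA in the oocyte.

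The genes most like each family were sought by Pearson correlation of log2(FPKM + 1) over the 6 libraries with the mean profile of the 4 tested members. For *Obox* these were *Pam16* (r = 0.989), *Ltbp3* (r = 0.978) and the row spelled Sep-11 (r = 0.961), and for *Oog* they were *Mvp* (r = 0.993), *Grlf1* (r = 0.988) and *Gm10689* (r = 0.985). These values are descriptions, since they are the highest of 10578 genes over 6 libraries of very unequal depth.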

How the data were processed

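Per the labels, rRNA was removed from the pooled fractions, and the remaining RNA was reverse transcribed, amplified (REPLI-g) and made into Nextera libraries, which do not mark strand. The authors trimmed reads (Trim Galore 0.4.1), aligned them to GRCm38 (HISAT2 2.0.5) and deposited FPKM per gene for each library, made with Seqmonk. Neither the annotation release nor the counting of reads that fit several genes was given in the sources used here. Amplified reads are not independent molecules, so intervals cover counting error only.

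Of 25965 rows, 66 with a repeated symbol were dropped. Depth was recovered from 14849 genes whose coordinates match GENCODE M21; between 85.3% and 91.1% of low values were whole reads within 0.02. Genes with a mean above 1 FPKM in a fraction were tested two-sided on log2(FPKM + 1) by limma 3.58.1 (R 4.3.3, trend on); fold changes on this scale understate those of low genes. With 3 libraries against 3, an exact permutation test cannot go below p = 0.1. No source says that replicates are separate animals, so p-values measure the spread between these samples. When noise with an SD of 0.3 on the log2 scale was simulated, the 200 genes changed by 2 were all called, with 17 unchanged genes beside them among 8511.

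Named genes are the members, list genes called or among the 3 highest, and the 3 most like each family; the near copies were named for their sequence. Members and lists were chosen with earlier results of these data known. Of 23 listed Prame family genes, 6 with no such RefSeq symbol were dropped. *Whsc2* is an older symbol of *Nelfa*. As alternatives, the pseudocount, the filter, the scaling and the trend were changed, the replicate number was used as a block, the threshold was set to 0.05, and libraries were left out in turn. A common FPKM sum, and all alternatives for *Nobox*, were added after seeing the data. Sequences were compared with Biopython 1.88 in Python 3.11.15.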

Additional observations from a re-analysis of the deposited data

How the results depend on the processing

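Under each of the 15 alternatives for every member (13 for *Obox3*), 0 members passed the threshold, with adjusted p of 0.212 or more (limma). The number of genes past the threshold, 192, was 69 with a pseudocount of 0.1, 0 with no filter on low values (1759 at an unadjusted p under 0.05), 3 with median-of-ratios scaling, 4 with quantile normalization, 7 with a common FPKM sum, 15 without trend and 65 at an adjusted p under 0.05. When a library was left out it ranged from 1 (without NP replicate 3; 4 and 12 without NP replicates 1 and 2) to 331 (without P replicate 3). The all-gene median ratio of -1.03 was -0.38, 0.00 and -0.43 under median-of-ratios scaling, quantile normalization and a common sum. Under these scalings in turn *Obox5* turned to 0.96, 1.09 and 0.89, *Oog1* to 0.96, 1.07 and 0.90, and *Oog3* to 0.102, 0.158 and 0.036, and under quantile normalization *Obox3* to 0.23. Leaving out a library gave log2 ratios between -0.068 and 0.505 for *Obox1*, 0.08 and 0.74 for *Obox2*, -1.09 and -0.43 for *Obox3*, -0.68 and 0.69 for *Obox5*, -0.48 and 0.57 for *Oog1*, -0.16 and 0.52 for *Oog2*, -1.15 and -0.75 for *Oog3* and -2.13 and -0.45 for *Oog4*. Of 118 values of members under the alternatives, 99 kept sign and side of the threshold and 19 had the other sign, 10 under these scalings and 9 with a library left out. All 19 kept their sign relative to the all-gene median of the same fit, which the scalings move. Why single libraries turn the sign was not tested. Among the 99, the side of that median did turn for *Obox3*, *Oog3* and *Oog4*. Their distances from it ranged from -0.14 to 0.61, from -0.37 to 0.83 and from -1.10 to 0.48 over the alternatives. The other members tested stayed above it throughout. The log2 ratios of *Oog4* and *Obox2* kept their sign in every alternative.

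With the replicate block, 668 genes passed and 0 members did. Across genes, NP and P libraries of the same number deviated together with r = 0.063, 0.099 and 0.116, those of different numbers with r between -0.089 and 0.021, and each library correlated best with its own number, which is a hint from the data that the numbers pair the samples and not a statement of the design.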
